A study of Mus musculus with 8 samples.

Results

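Transcripts of the Notch pathway were described in the ovary of juvenile mice with and without ghrelin-O-acyltransferase (GOAT), the enzyme encoded by *Mboat4* that attaches a fatty acid to ghrelin. The 10 genes described are those with the symbols *Notch1*, *Notch2*, *Notch3*, *Notch4*, *Jag1*, *Jag2*, *Hes1*, *Hey1*, *Hey2* and *Heyl*, out of 45583 symbols in the table of gene counts. All 10 passed the filter on low counts, which left 16601 genes to test. Ovaries came from 4 WT and 4 GOAT KO female mice of the C57/Bl6 strain, aged 3 weeks, with no treatment in the labels and 1 library of 50-base single reads per mouse. GOAT KO animals came from a line with a deletion in the whole body, and WT animals were bred from the same heterozygous crosses. Each library held the RNA of whole ovarian tissue, so that a smaller number of cells of a type and less RNA per cell cannot be told apart.

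Notch receptors are cut on binding a Jagged or delta-like ligand on a neighbouring cell. The freed inner part enters the nucleus, where it joins the DNA-binding protein RBPJ and switches on *Hes* and *Hey* genes, which encode repressors of transcription. In the ovary, Jagged ligands of the oocyte and Notch receptors of the granulosa cells are known for their part in the breakdown of germ cell nests and in early follicle growth, and Notch receptors of the endothelium and of mural cells (pericytes and smooth muscle) for vessel growth.

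The libraries held 16147216 to 19481798 counts on genes, with 85.92% to 87.02% of all reads mapped to the genome, and CPM below are counts scaled to a library of 1000000 reads, after TMM scaling between libraries. The targeted gene went against the labels. *Mboat4* had 1, 1, 1 and 3 counts in the libraries labelled WT and 5, 7, 7 and 8 counts in those labelled GOAT KO (exact two-sided permutation test, p = 0.0286, the smallest that 4 against 4 libraries allow), so every direction below rests on the labels alone. Which part of *Mboat4* the allele keeps is not given in the sources used here, so that these few counts do not settle the labels. PCR measurements of *Mboat4* made by the study were not analysed here. The tissue label fitted the markers, since each of 10 granulosa cell and 10 oocyte markers was read in all 8 libraries, with *Gdf9*, an oocyte growth factor, at 4830 counts or more. One library, GOAT KO 1139, carried fat markers. The summed level of 5 fat markers was 334 CPM in this library, 16.3 to 22.5 CPM in the other GOAT KO libraries and 8.43 to 19.03 CPM in WT, while *Lep*, the fat hormone leptin, had 0 counts in WT 1120 and GOAT KO 1146. The study left out 1 library of each group that its text does not name, so values are given for all 8 libraries, and the differences of the members also, in the text or in the plot of log2 fold changes, for 6 libraries without WT 1120 and GOAT KO 1139, a pair taken from earlier results of these data and not named by the study.

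Promoter sequences were searched for a feature of Notch targets. The letters GTGGGAA, the core of the sequence that RBPJ binds, were searched on both strands of RefSeq promoters, from 250 bases before to 50 bases after the start of a gene (GRCm38.p6). Of 32851 promoters, 6.38% held at least 1 match and 0.256% held at least 2. Of the 7 members with a promoter in the table, 1 held a match, too few to set apart from that background, *Hey2*, with 2 matches, while the 6 receptor and ligand genes held none; the promoters of *Hes1*, *Hey1* and *Heyl* were not analysed here. Among 35 other Notch pathway genes, some with more than 1 promoter, 6 held a match, and *Hes5* and *Lfng* are shown beside *Hey2* as a classical target and a receptor-modifying enzyme, chosen after their values were seen. Capitals mark the match or its reverse complement, and each sequence is printed along the strand of its gene. The 2 matches of *Hey2* lie at chr10:30842960-30843014 and chr10:30842781-30842811 on the minus strand, those of *Hes5* at chr4:154960673-154960727 and chr4:154960816-154960870 on the plus strand, and that of *Lfng* at chr5:140607208-140607262 on the plus strand.
Hey2, first match: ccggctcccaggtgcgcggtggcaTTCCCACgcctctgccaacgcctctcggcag
Hey2, second match: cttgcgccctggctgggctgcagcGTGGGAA
Hes5, first match: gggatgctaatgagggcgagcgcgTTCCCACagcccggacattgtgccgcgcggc
Hes5, second match: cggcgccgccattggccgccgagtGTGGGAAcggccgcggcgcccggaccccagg
Lfng, its match: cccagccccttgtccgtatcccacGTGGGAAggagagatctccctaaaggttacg
These matches describe letters and not sites in use. *Hey2* and *Hes5* both hold 2 of them, yet *Hey2* had 1101 to 1631 counts in a library and *Hes5* had 0 or 1.

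The Notch targets *Heyl* and *Hey2* and the receptor *Notch2* had the highest levels for their length in the juvenile ovary, and *Notch1* and *Notch4* the lowest. Levels were compared between genes as CPM per kilobase of exons, in which a longer gene does not gain from its length. *Heyl*, a target gene known from vascular smooth muscle, had a mean of 30.0 CPM per kilobase over 8 libraries (range 24.9 to 42.9), above 88.8% of the 15820 tested genes with a known length. *Hey2*, a related repressor, had 17.4 (range 14.6 to 21.2) and *Notch2*, the main receptor described in granulosa cells, 13.3 (range 12.4 to 14.6). *Hes1*, a repressor found in many tissues, followed with 11.2 CPM per kilobase. *Jag1*, the ligand known from oocytes, had 6.76 CPM per kilobase, *Notch3* 3.78, *Hey1* 3.22, *Jag2* 3.22, *Notch1* 1.97 and *Notch4* 0.985. Each gene stood above the next in all 8 libraries, except that *Notch3* exceeded *Hey1* in 6 of 8 and *Hey1* exceeded *Jag2* in 5 of 8, and these neighbours cannot be ordered beyond their spread. The order depended on the length used for genes with long untranslated ends. Per kilobase of coding sequence, *Hes1* stood above *Notch2* (27.0 against 19.3 CPM) and *Hey1* above *Jag1* (11.7 against 10.8 CPM), so that *Hey1* was also above *Notch3* (4.37 CPM). *Jag2*, at 5.99 CPM, stood above *Notch3* on this scale.

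**Figure D1:**
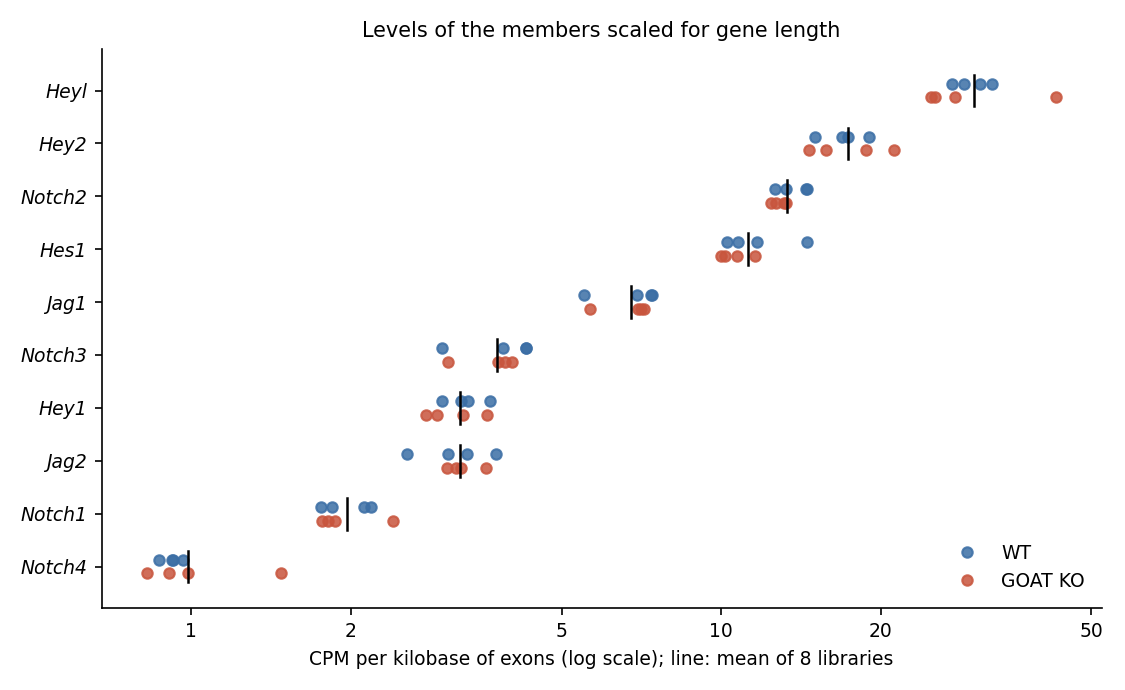
Level of each member in CPM per kilobase of exons on a log scale, with 1 point per library (blue WT, red GOAT KO, 4 libraries each) and a line at the mean of 8 libraries. *Heyl* spans 24.9 to 42.9 and *Notch4* 0.826 to 1.48, and the groups overlap for every gene.

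None of the 10 members passed an unadjusted p under 0.05 between libraries labelled GOAT KO and WT by edgeR's quasi-likelihood test, against 4.62% of all 16601 genes tested. With the study's cutoff for pathway analysis, an absolute log2 fold change over 0.3, the background was 2.85% and no member passed either. DESeq2 and limma-voom also gave 0 of 10 members at an unadjusted p under 0.05. The smallest Benjamini-Hochberg adjusted p of a member, over all genes tested, was 0.983. The values of the groups overlapped for all 10 members, whereas they did not overlap for 2.92% of the genes tested. The median log2 fold change of the members was -0.017, and that of all genes tested -0.00035. These p-values measure the spread between single animals.

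Among the receptors, *Notch2* had the difference with the smallest error. In WT 1118, 1119, 1120 and 1121, *Notch2* (chr3:98013527-98150361, plus strand) had 157, 143, 136 and 156 CPM, and in GOAT KO 1139, 1140, 1141 and 1146 it had 143, 134, 137 and 142 CPM. Its highest values were those of WT 1118 and WT 1121, and the GOAT KO values fell within or just under the WT range. The WT mean was 148 ± 10.1 CPM and the GOAT KO mean 139 ± 4.17 CPM (SD, n = 4 each). On the log2 scale, GOAT KO over WT was -0.09 (SE 0.060, 95% interval -0.23 to 0.04). Leaving out 1 library at a time gave -0.14 to -0.065. By edgeR the unadjusted p was under 0.05 in 1 of these 8 fits, without WT 1120 (0.0339), and it was 0.299 without WT 1118 and 0.324 without WT 1121, the high WT libraries.

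*Notch3*, a receptor of mural cells (chr17:32120820-32166852, minus strand), had 34.6, 31.4, 24.04 and 34.7 CPM in the WT libraries in the same order, and 32.7, 24.7, 30.7 and 31.6 CPM in the GOAT KO libraries. One library in each group, WT 1120 and GOAT KO 1140, was low. GOAT KO over WT was -0.06 on the log2 scale (SE 0.125, 95% interval -0.33 to 0.22).

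*Notch1* (chr2:26457903-26516663, minus strand), the receptor of developing vessels, had 31.1, 25.0, 26.3 and 30.1 CPM in WT and 34.2, 25.1, 26.6 and 25.7 CPM in GOAT KO. GOAT KO 1139, the library with fat markers, was the highest of all 8. On the log2 scale the difference was -0.01 (SE 0.113, 95% interval -0.26 to 0.24) with all 8 libraries and -0.15 (95% interval -0.36 to 0.05) with 6. The part of the fat or of other cells in this difference was not tested.

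*Notch4*, a receptor largely of endothelium (chr17:34564268-34588503, plus strand), had 7.0, 7.45, 7.41 and 7.80 CPM in WT and 7.96, 6.66, 7.32 and 11.9 CPM in GOAT KO. A single library, GOAT KO 1146, lay above the others, which spanned 6.66 to 7.96 CPM. A log2 fold change of 0.19 (SE 0.171, 95% interval -0.19 to 0.57) turned to -0.02 without this library. The gap did not appear in reads across splice junctions of *Notch4*, of which GOAT KO 1146 had 12 and the other libraries 9 to 14, and the 205 counts of this library on the gene were the highest of the 8.

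Of the Jagged ligands, *Jag1* was low in 1 library of each group. *Jag1* (chr2:137081456-137116644, minus strand) had 43.2, 43.1, 32.1 and 40.5 CPM in WT and 32.9, 41.6, 40.6 and 41.1 CPM in GOAT KO. The low libraries were WT 1120 and GOAT KO 1139, and the other 6 spanned 40.5 to 43.2 CPM. The same pair had the highest summed level of 6 theca and steroidogenic markers, with 3118 and 3165 CPM. The other WT libraries had 1967 to 2471 CPM and the other GOAT KO libraries 2493 to 2825 CPM, and none of the 6 markers was at 0. Of the 6, only *Cyp17a1* (355 and 601 CPM, 42.4 to 138 elsewhere) and *Star* (31.9 and 233.5 CPM, 8.14 to 20.45 elsewhere) had their highest values in this pair. *Hsd3b1*, the largest part of the sum, was lowest of the GOAT KO group in GOAT KO 1139 (1851 CPM, 2131 to 2284 CPM in the others). The part of these cells in the *Jag1* values was not tested. For *Jag1* the log2 fold change was -0.02 (SE 0.109, 95% interval -0.26 to 0.22) with 8 libraries and -0.04 (SE 0.067, 95% interval -0.19 to 0.11) with 6.

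*Jag2* (chr12:112907819-112929776, minus strand), the second Jagged ligand, had 21.3, 23.1, 26.2 and 17.8 CPM in WT and 21.2, 22.1, 25.0 and 22.5 CPM in GOAT KO. All GOAT KO values lay inside the WT range. This gave a log2 fold change of 0.04 (SE 0.114, 95% interval -0.21 to 0.29), and of 0.16 (SE 0.110) with 6 libraries.

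The targets of the pathway gave differences on both sides of 0. *Hes1* (chr16:30064384-30067796, plus strand) had 29.6, 20.9, 23.8 and 21.9 CPM in WT and 20.8, 23.6, 20.4 and 21.9 CPM in GOAT KO. WT 1118 was the high library, and the other 7 lay between 20.4 and 23.8 CPM. Its log2 fold change, -0.15 (SE 0.111, 95% interval -0.40 to 0.09), came to -0.04 without WT 1118.

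*Hey1* (chr3:8663359-8667256, minus strand) had the lowest level of the targets for its length, with 11.96, 10.9, 10.5 and 9.70 CPM in WT and 11.8, 10.6, 9.52 and 9.07 CPM in GOAT KO. Both groups covered nearly the same span. Their difference on the log2 scale was -0.07 (SE 0.113, 95% interval -0.32 to 0.18), and -0.16 (SE 0.125) with 6 libraries.

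*Hey2* (chr10:30832359-30842801, minus strand) had 79.6, 77.7, 87.4 and 69.1 CPM in WT and 97.6, 67.3, 72.6 and 86.2 CPM in GOAT KO. GOAT KO 1139 was the highest and GOAT KO 1140 the lowest library. The log2 fold change was 0.04 (SE 0.114, 95% interval -0.21 to 0.30).

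*Heyl* (chr4:123233556-123249875, plus strand) turned direction with the choice of libraries. Its values were 166, 140, 158 and 147 CPM in WT and 219, 142, 129 and 127 CPM in GOAT KO. GOAT KO 1139 stood above every WT library, and of the other GOAT KO libraries 2 stood below every WT library and 1 just above the lowest. The log2 fold change was 0.02 (SE 0.155, 95% interval -0.32 to 0.36) with 8 libraries and -0.20 (SE 0.075) without GOAT KO 1139, with an unadjusted p of 0.0228 by edgeR. GOAT KO 1139 is the library with 334 CPM of fat markers. It also had the highest mean log2 level of the mural markers (6.83, with 6.52 to 6.79 in the other libraries). Its summed mural level was not the highest (2138 CPM, with 2446 CPM in GOAT KO 1146). The part of the fat or of other cells in its *Heyl* value was not tested.

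**Figure D2:**
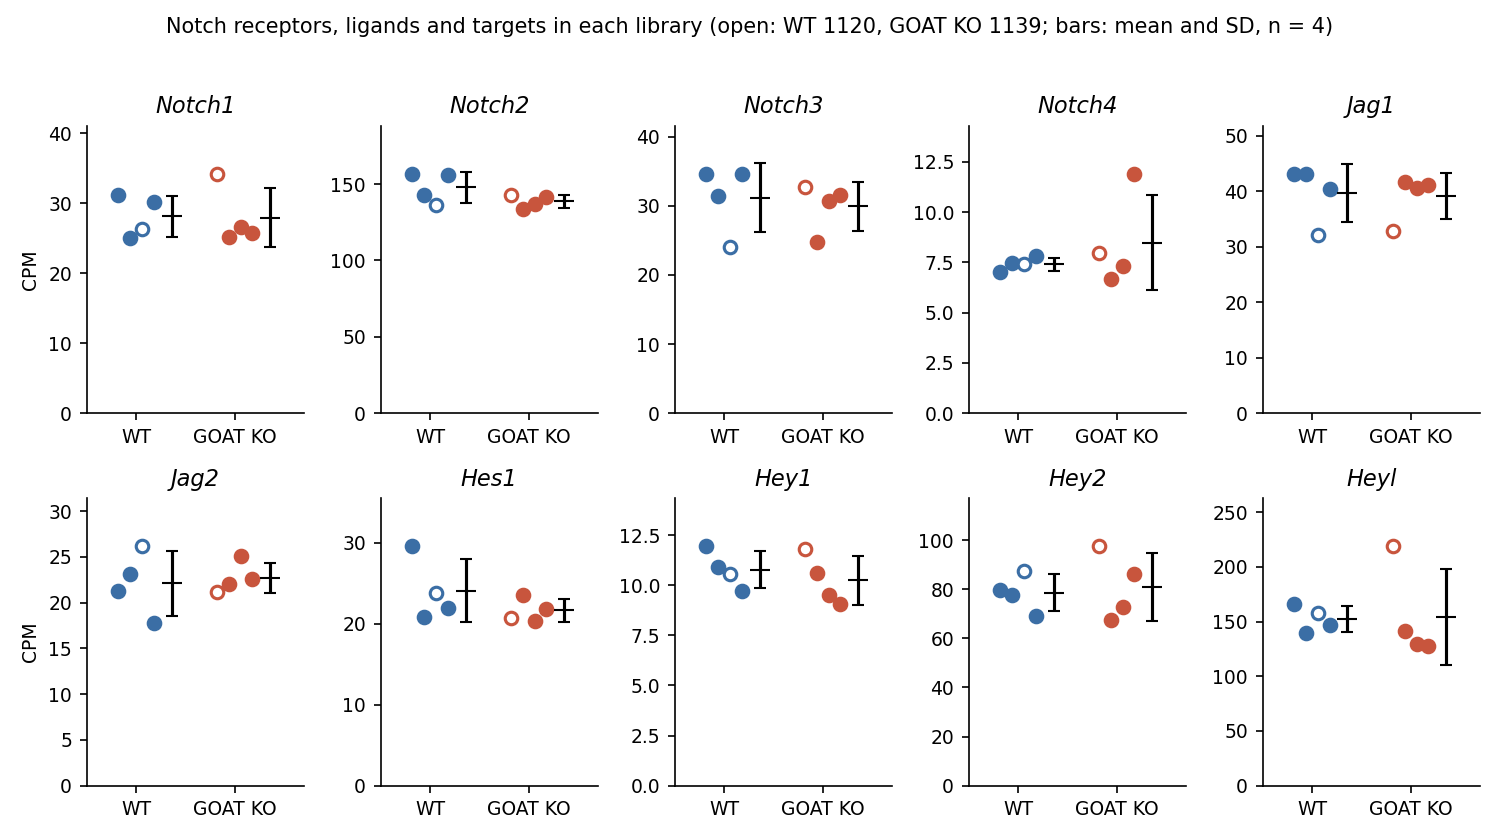
CPM of each member in each library (axis from 0), with 4 WT libraries in blue, 4 GOAT KO libraries in red, WT 1120 and GOAT KO 1139 as open circles, and the mean with SD beside each group. The groups overlap in every panel, and single libraries stand apart for *Notch4* (11.9 CPM), *Jag1* (32.1 and 32.9 CPM) and *Heyl* (219 CPM).

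With the 6 libraries, *Notch2* and *Heyl* had lower values in the libraries labelled GOAT KO at an unadjusted p under 0.05, which makes 2 of 10 members against 9.46% of the 16641 genes tested in either direction and 4.65% lower in GOAT KO. For *Notch2* the log2 fold change was -0.15 (SE 0.059, 95% interval -0.28 to -0.01, unadjusted p = 0.0329), and for *Heyl* -0.18 (SE 0.075, 95% interval -0.35 to -0.02, unadjusted p = 0.0323). The adjusted p of both was 0.507 by edgeR, and neither passed a log2 fold change of 0.3 either way, while 4.77% of genes passed both this and an unadjusted p under 0.05. *Notch2* was also the 1 member of 10 whose values no longer overlapped between the groups, as for 15.8% of genes. *Notch3* had a log2 fold change of -0.21 (95% interval -0.43 to 0.01) and *Notch4* of 0.22 (95% interval -0.23 to 0.66). The median of the members was -0.14, and that of all genes 0.0010. Both fits share the same 6 libraries, so the second is no separate evidence. Some cell type markers passed an unadjusted p under 0.05 in the same fit, as did 9.46% of all genes. Of the granulosa cell markers 6 of 10 did (5 higher and 1 lower in GOAT KO). Lower were 2 of 10 endothelial (*Cdh5* and *Erg*), 1 of 10 mural (*Pdgfrb*) and 2 of 7 surface epithelium markers (*Krt7* and *Krt19*). As whole lists, the endothelial markers had a median log2 fold change of -0.018 (4 positive, 6 negative). That of the mural markers was -0.0067 (5 positive, 5 negative). Of the tested theca and steroidogenic markers 2 of 5 (*Cyp11a1* and *Hsd3b1*) and of the fat markers 1 of 4 (*Plin1*) were higher, and of the leukocyte markers 1 of 6 (*Adgre1*) was lower. None of the tested oocyte (0 of 10), oviduct (0 of 4) and striated muscle markers (0 of 3) passed. In these libraries the granulosa markers summed to 8707 to 10250 CPM in WT and 10440 to 11100 CPM in GOAT KO, the endothelial to 404 to 452 and 375 to 446 CPM, the mural to 2011 to 2244 and 1933 to 2446 CPM and the surface epithelium to 169 to 184 and 156 to 161 CPM. The theca markers summed to 1967 to 2471 CPM in WT and 2493 to 2825 CPM in GOAT KO, the fat markers to 8.43 to 19.03 and 16.3 to 22.5 CPM, and the leukocyte markers to 33.9 to 48.5 and 34.6 to 38.1 CPM. Apart from 1 leukocyte marker in GOAT KO 1140 and *Lep* in GOAT KO 1146, none of these markers was at 0, and their part in the *Notch2* and *Heyl* values was not tested.

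**Figure D3:**
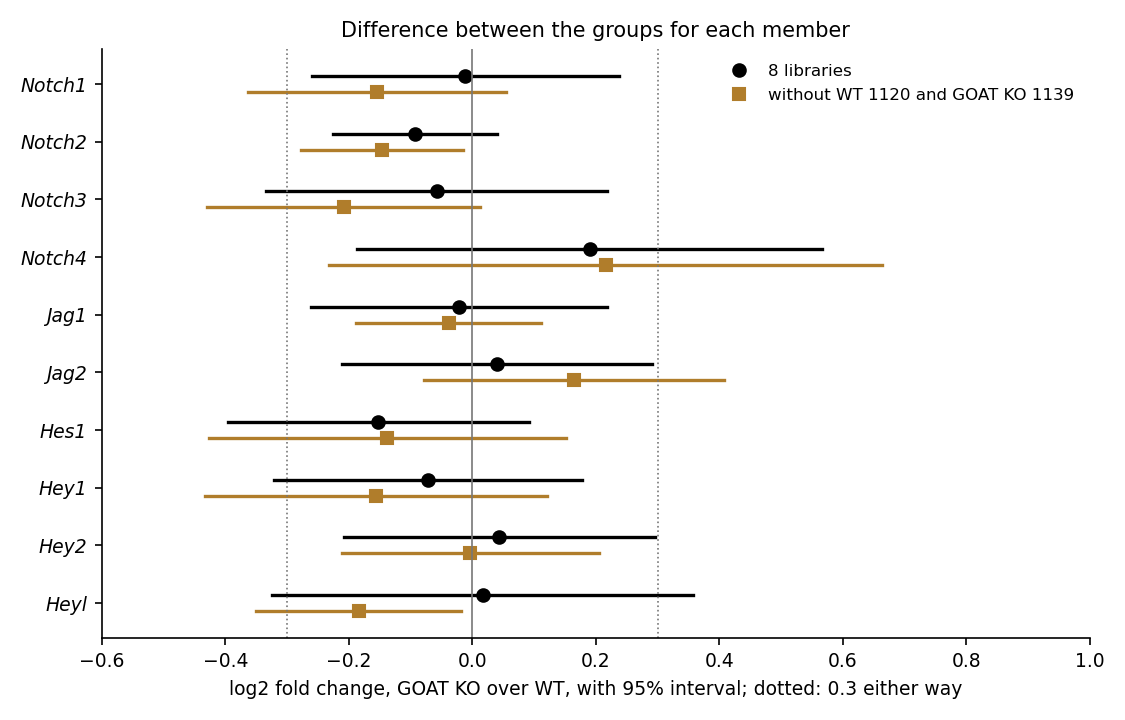
Log2 fold change of GOAT KO over WT for each member with its 95% interval, from 8 libraries (black circles) and from 6 libraries without WT 1120 and GOAT KO 1139 (brown squares), with dotted lines at 0.3 either way. All black intervals cross 0, and of the brown ones those of *Notch2* (-0.28 to -0.01) and *Heyl* (-0.35 to -0.02) do not.

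The intervals set how large a difference these libraries could have missed. For *Notch2* the 95% interval of the ratio of GOAT KO to WT ran from 0.855 to 1.03, and for *Hes1* from 0.760 to 1.07. *Notch4* had the widest, from 0.879 to 1.48, and *Heyl* followed with 0.799 to 1.28. A change of the size of the 0.3 cutoff was thus inside the interval for *Notch4*, *Heyl*, *Notch3*, *Hes1* and *Hey1*, and outside it for *Notch1*, *Notch2*, *Jag1*, *Jag2* and *Hey2* with 8 libraries. With 6 libraries it was inside the interval for *Notch1* (-0.36 to 0.05) and *Jag2* (-0.08 to 0.41) as well.

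*Notch2* made up most of the receptor transcripts in every library. As a share of the length-scaled level of the 4 receptors, it was 66.5%, 66.9%, 68.8% and 66.3% in the WT libraries and 64.1%, 68.7%, 65.9% and 64.6% in the GOAT KO libraries. The means were 67.1% ± 1.15 (SD, n = 4) and 65.8% ± 2.08 (SD, n = 4) and did not differ beyond the spread of the libraries (exact two-sided permutation test, p = 0.286). *Notch3* held 18.7% ± 1.71 (SD, n = 4) in WT and 18.9% ± 1.29 (SD, n = 4) in GOAT KO (exact permutation p = 0.83). *Notch1* held 9.65% ± 0.544 and 9.997% ± 1.16 (SD, n = 4 each, exact permutation p = 0.743), and *Notch4* 4.51% ± 0.434 and 5.33% ± 1.29 (SD, n = 4 each, exact permutation p = 0.314). Adjusted over the 4 shares, no p was under 0.629. Single libraries moved the differences. Without GOAT KO 1140 the *Notch2* share was 2.25 percentage points lower in GOAT KO (a difference of -2.25, exact permutation p = 0.0286, unadjusted, the smallest possible there). The *Notch4* difference went from 0.819 to 0.173 points without GOAT KO 1146, that of *Notch1* from 0.348 to -0.196 without GOAT KO 1139, and that of *Notch3* from 0.118 to -0.736 without WT 1120.

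**Figure D4:**
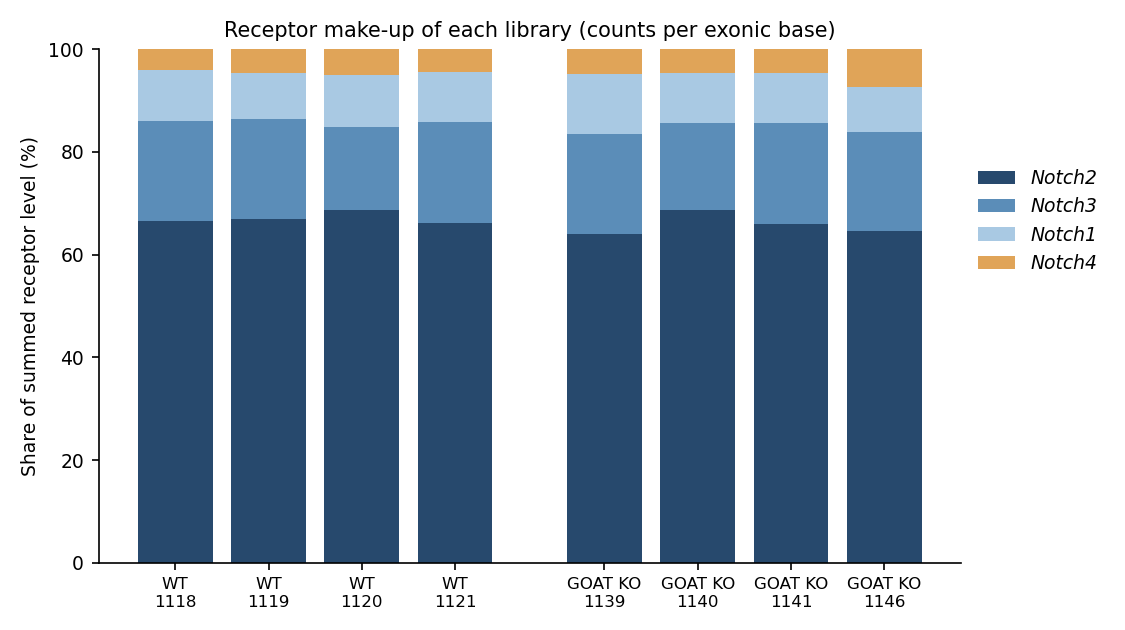
Share of each receptor in the summed level of the 4 receptors (counts per exonic base, in percent) for each of 8 libraries. *Notch2* takes 64.1% to 68.8%, *Notch3* 16.2% to 19.7%, *Notch1* 8.87% to 11.6% and *Notch4* 3.97% to 7.27%.

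Of 45 other Notch pathway genes, 39 were tested, and 1 passed an unadjusted p under 0.05, beside the background of 4.62%. None passed the 0.3 cutoff as well. The median log2 fold change of the 39 was -0.021, with a range from -0.26 to 0.22.

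The delta-like ligands had low levels for their length, at 1.78 CPM per kilobase of exons for *Dll4*, 0.861 for *Dll1* and 0.164 for *Dll3*. *Dll4*, the delta-like ligand of endothelium, had 5.61 to 7.74 CPM in WT and 6.05 to 7.30 CPM in GOAT KO, with a log2 fold change of -0.10 (SE 0.131). *Dll1* had 3.28 to 4.72 CPM in WT and 2.75 to 3.95 CPM in GOAT KO, with a log2 fold change of -0.19 (SE 0.166). *Dll3* did not pass the filter, at 4 to 11 counts per library, and neither did the target genes *Hes2*, *Hes3*, *Hes5* and *Hes7* or the ligand-like gene *Dlk1*, which had 0 counts in every library (allowing up to 3 counts in each, or 0.186 CPM).

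Fringe enzymes add a sugar to the receptors and so set which ligand they answer to. *Lfng* had 2.85 to 3.72 CPM in WT and 3.14 to 4.25 CPM in GOAT KO, a log2 fold change of 0.22 (SE 0.154, 95% interval -0.12 to 0.56), and of 0.11 with 6 libraries. For *Mfng* the log2 fold change was 0.05 (SE 0.142), and for *Rfng*, the highest of the fringe genes for its length at 8.63 CPM per kilobase, it was -0.0026 (SE 0.099). None of the 5 sugar-transferring enzymes and none of the 9 genes for proteases that cut the receptors or for further subunits of gamma-secretase passed the test, and these 9 spanned -0.07 to 0.06. *Rbpj*, the DNA-binding partner of the freed receptor, had 57.6 to 67.2 CPM in WT and 59.5 to 72.7 CPM in GOAT KO, with a log2 fold change of 0.09 (SE 0.078).

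*Dtx4*, a Deltex ubiquitin ligase that acts on Notch receptors, was the 1 gene that passed, and it is named here after its values were seen. It had 153, 139, 128 and 162 CPM in WT and 103, 124, 119 and 139 CPM in GOAT KO. The groups overlapped, since GOAT KO 1146 stood above WT 1119 and WT 1120. The log2 fold change was -0.26 (SE 0.097, unadjusted p = 0.0219 and adjusted p = 0.983 by edgeR), and with 6 libraries -0.25 (unadjusted p = 0.00780). Leaving out WT 1118, WT 1121, GOAT KO 1139 or GOAT KO 1141 brought the unadjusted p to 0.0549, 0.0735, 0.0609 and 0.0514 by edgeR, and the exact permutation test of all 8 libraries gave p = 0.0857.

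**Figure D5:**
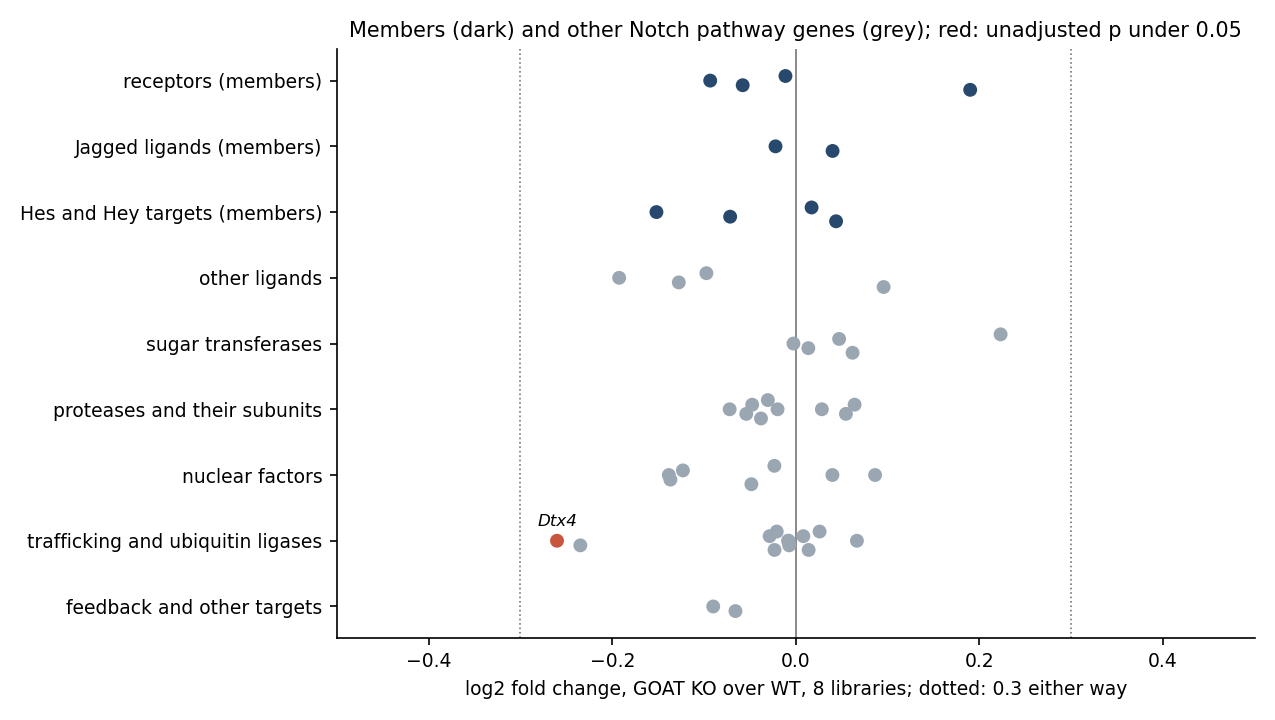
Log2 fold change of GOAT KO over WT with 8 libraries for the 10 members (dark) and 39 other tested Notch pathway genes (grey), grouped by role, with the gene at an unadjusted p under 0.05 in red and dotted lines at 0.3 either way. The 49 genes lie between -0.26 (*Dtx4*) and 0.22 (*Lfng*).

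Whole ovary mixes the cells that carry these genes, so the members were set beside marker levels of 4 cell types over the 8 libraries, in 40 relations. The closest was that of *Notch3* with 10 endothelial markers (Pearson r = 0.908, exact permutation p = 0.00298, adjusted p = 0.119; Spearman rho = 0.786, exact permutation p = 0.0279). Without GOAT KO 1140 and WT 1120, the libraries farthest from the median of the markers, r was 0.673 (exact permutation p = 0.164). The relation was thus weaker over fewer libraries and a narrower range of the markers. Within the groups r was 0.941 in WT and 0.881 in GOAT KO. The summed level of the endothelial markers was 386 to 452 CPM in WT and 375 to 446 CPM in GOAT KO, no marker was at 0, and none of the 10 passed the test between groups.

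*Notch2* had lower levels where 10 granulosa cell markers were higher (r = -0.845, exact permutation p = 0.0169, adjusted p = 0.324; rho = -0.619, exact permutation p = 0.115). This rested on WT 1118 and WT 1121, without which r was -0.0070, and r was -0.972 within WT but 0.814 within GOAT KO. The granulosa markers summed to 8707 to 10900 CPM in WT and 10440 to 11110 CPM in GOAT KO, with none at 0, and 3 of 10 (*Fshr*, *Hsd17b1* and *Fst*) were higher in GOAT KO at an unadjusted p under 0.05. No relation passed at an adjusted p under 0.05, and whether cell numbers take part in the member levels was not tested beyond this.

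Reads across splice junctions gave a second count of the same libraries. Of 192 introns in the main transcripts of the 10 genes, 173 were read at least 1 time, with 6204 reads in all. Junction reads, as a share of all junction reads of a library, gave 0 of 10 members at p under 0.05 between the groups (exact two-sided permutation test). The share of all genes passing this test was not computed, so the count is not read as a trait of the members. *Jag1* had 70 to 159 junction reads in WT and 108 to 180 in GOAT KO (exact permutation p = 0.171), and *Notch1* had 70 in WT 1121 and 60 in GOAT KO 1139 against 24 to 33 in the other libraries. The intron borders of the annotation thus held nearly all junction reads of the members, with 35 further reads on 19 junctions outside it, 15 of which had 1 read. Among the transcripts that StringTie assembled, the main transcript of *Hey2* was present in 8 of 8 libraries, that of *Hes1* in 7, of *Heyl* in 6 and of *Hey1* in 1, and those of the long receptor and Jagged genes in 0.

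*Notch3* had the unannotated junction with the most reads. It joined annotated exon borders across chr17:32144287-32153524 (GRCm38), spanned introns 12 to 22 of the main transcript and left out 10 exons with 1767 bases, a multiple of 3. It had 10 reads in 4 libraries, with 2 in WT 1118, 5 in WT 1119, 1 in GOAT KO 1139 and 2 in GOAT KO 1141. The annotated introns within the same stretch had 0 to 42 reads each over the 8 libraries, 28 for the first and 1 for the last. The source of these reads was not tested.

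Counts on overlapping genes limit some values. The use of strand in counting is not given in the sources used here, and *Notch1* shares 1068 exonic bases with *0610009E02Rik* on the opposite strand, a gene with at most 31 counts in a library. The overlap of *Notch3* with *Gm17276* covers 488 bases, and that gene had at most 7 counts. *Notch3* itself had 405 to 636 counts and *Notch1* 411 to 572. *Notch2* shares 541 exonic bases with *Gm42820* on the same strand, which counting by strand could not separate, and no count of that gene was analysed here.

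The genes whose levels followed each member most closely over the 8 libraries were taken from 12365 tested genes with a mean of at least 5 CPM, by Pearson r of log2(CPM + 0.5), with no test. The highest of 12365 relations over 8 libraries can be high through the search alone, so no link is drawn from the values below. For *Notch1* these were *Afap1l2* (r = 0.982) and *H2-Ab1* (r = 0.944), for *Notch2* *Mxra8* (r = 0.973) and for *Notch3* *Fgf2* (r = 0.968). *Notch4* was closest to *Pi15* (r = 0.960) and *Actg2* (r = 0.959), a smooth muscle actin. Among the ligands, *Jag1* was closest to *Gm9770* (r = 0.992) and *Rhobtb1* (r = 0.986), and *Jag2* to *Vopp1* (r = 0.928). Among the targets, *Hes1* was closest to *Mapk3* (r = 0.982), *Hey1* to *Hook1* (r = 0.971), *Hey2* to *Hspa1b* (r = 0.952) and *Heyl* to *Dos* (r = 0.951). No member was among the 2 genes closest to another member.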

How the data were processed

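Total RNA of 8 ovaries was sequenced by the authors as single reads. After trimming, reads were placed on mm10 (GRCm38) with TopHat2 2.0.14, and the authors deposited raw counts for each gene symbol. The counting tool is not given in the sources used here. Deposited junction counts are reads across each splice junction. Mapped reads were deposited in percent of all reads of a library. Transcripts assembled by the authors with StringTie 1.0.4 have the same score in every row, which was not used.

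Counts were compared with edgeR 4.0.16 in R 4.3.3 (TMM scaling, filterByExpr with at least 10 counts, quasi-likelihood test) over all 16601 genes, with Benjamini-Hochberg adjustment. An SE was taken as the size of the log2 fold change over the root of the F value. Calculations were tested on simulated data. Shares, junction reads and marker relations were compared by exact permutation over libraries, with levels as log2(CPM + 0.5). Each library has its own animal number and counts as 1 replicate. Every pair of libraries of a group differed beyond sampling noise (chi-square of 4.24 or more for each gene on average), from animals or from handling. Positions and lengths come from GENCODE M21, a later release of the same build. The alternatives were RLE size factors, no filter, DESeq2 1.42.0, limma-voom (limma 3.58.1), 6 libraries and each library left out. All 10 members are named, and of the 45 other pathway genes the rule named the delta-like ligands, the fringe genes, *Rbpj* and any past both cutoffs (none). *Dtx4*, *Dlk1*, *Hes2*, *Hes3*, *Hes5* and *Hes7* were added after their values were seen. Members and lists were chosen with earlier results of these data known.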

Additional observations from a re-analysis of the deposited data

Results flagged for a closer look

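Of 62 groups of 4 libraries examined, 7 held a library that stood apart from the other 3 by Dixon's criterion (the gap to the nearest library over the whole range), and chance flags about 1 in 20 groups. In the GOAT KO group, GOAT KO 1139 stood apart for *Notch1* (34.2 CPM, with 25.1 to 26.6 CPM in the others), for *Jag1* (32.9 CPM, with 40.6 to 41.6 CPM) and for *Heyl* (219 CPM, with 127 to 142 CPM). The same library stood apart for *Notch1* junction reads, with 22.2 reads in 1000000 junction reads and 9.57 in the nearest library. *Notch4* took 7.27% of the receptor level in GOAT KO 1146, and 4.58% to 4.77% in the others. In the WT group, *Notch3* took 16.2% of the receptor level in WT 1120, with 19.6% in the others, and *Dll4* had 5.61 CPM in WT 1119, with 7.42 to 7.74 CPM in the others.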

How the results depend on the processing

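No member passed both an unadjusted p under 0.05 and a log2 fold change over 0.3 either way with RLE size factors, without a filter, with DESeq2, with limma-voom, with 6 libraries or with any library left out. Of all genes tested, 473 passed these cutoffs (278 at 0.5), 918 (691) without a filter on low counts and 793 with 6 libraries. Leaving out 1 library gave 382 to 866 (231 to 437), the highest in each case without WT 1120. Among other pathway genes the count went from 0 to 1 (*Dtx4*) without WT 1120 (a log2 fold change of -0.32) and without GOAT KO 1146 (-0.33), and leaving out 1 library gave 0 to 1.

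Directions near 0 turned with the libraries. Leaving out 1 library gave log2 fold changes of -0.12 to 0.039 for *Notch1*, -0.17 to 0.022 for *Notch3*, -0.020 to 0.29 for *Notch4*, -0.12 to 0.051 for *Jag1*, -0.054 to 0.13 for *Jag2*, -0.059 to 0.12 for *Hey2*, -0.20 to 0.099 for *Heyl*, -0.029 to 0.13 for *Mfng* and -0.061 to 0.097 for *Rfng*. With 6 libraries *Heyl* was -0.18, *Hey2* -0.0030 and *Rfng* 0.086, and with limma-voom *Heyl* was -0.018 and *Rfng* 0.0064. The share of *Notch1* among the receptors differed by -0.062 percentage points with 6 libraries (leave-one-out -0.20 to 0.71) and that of *Notch3* by -0.96 (leave-one-out -0.74 to 0.76). The relations of *Notch2* with endothelial (r = 0.644) and granulosa markers (r = -0.0070) and of *Notch3* with endothelial markers (r = 0.673) lost their unadjusted call without the 2 farthest libraries, as did those of *Notch4* (r = 0.610) and *Hey2* (r = 0.242) with mural markers, while those of *Notch1* (r = 0.839, exact permutation p = 0.0389) and *Notch2* (r = 0.839, exact permutation p = 0.0431) with mural markers gained one. The cause of these shifts was not tested. No paired analysis was possible because the labels do not give the litter of an animal, and the groups share no animal number. At this depth *Notch4*, with 109 to 205 counts, and *Hey1*, with 156 to 197, have the fewest counts of the members.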
